A study of Mus musculus with 4 samples.

Results

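The interstitial collagens are the collagens that lie in the connective tissue between the sheets of basement membrane, or that fasten cells to it. They were taken here as the protein-coding genes with a symbol made of Col, a type number, the letter a and a chain number that had at least 1 count in some lung, leaving out the basement membrane genes *Col4a1* to *Col4a6* and the genes *Col15a1* and *Col18a1*. This gave 36 genes of the 45706 in the table, of which 28549 had a count. RNA was sequenced from the left lung lobes of C57BL/6 mouse embryos at embryonic day (E) 17, when air sacs form. Of these, 2 were wild type (*Myh10*+/+) and 2 were homozygous for an allele of *Myh10*, found in a screen of mice mutagenised with N-ethyl-N-nitrosourea, that replaces a leucine by an arginine in the motor domain of non-muscle myosin heavy chain II-B (L458R, labelled Myh10L458R/L458R; written *Myh10*-/-, or mutant, below). Counts on genes summed to 23156026 and 19116971 for the wild types and to 27573824 and 32055306 for the mutants. Each lung came from a separate mouse. Scaled to library size (CPM), *Xist* was at 3916 in wild-type lung 1 and at 4457 in mutant lung 2 and near 0 in the others, where *Ddx3y* was at 182 CPM (wild-type lung 2) and 198 CPM (mutant lung 1), so that each genotype had 1 female and 1 male lung. *Myh10* itself was at 505 and 504 CPM in wild types against 539 and 513 CPM in mutants. Since the allele is a missense change, this level does not check the labels.

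A collagen is a triple helix of chains with repeating glycine, made in the endoplasmic reticulum, trimmed outside the cell and then joined to others. Types I, III and V assemble into the banded fibrils that give lung tissue its tensile strength, fibril-associated collagens sit on the surface of these fibrils, and type VI forms beaded filaments that link fibrils to cells. In the lung fibroblasts make most of them, and collagen is laid down as the walls between air sacs form.

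Together the 36 genes took 0.754% and 0.779% of all counts in wild types and 0.764% and 0.733% in mutants. After scaling by the trimmed mean of M values (TMM), their summed level was 7617 and 7818 CPM in wild types and 7576 and 7303 CPM in mutants. On this scale each mutant sum was below each wild-type sum, while as a share of all counts the genotypes overlapped. Mutant lung 1 was within 1% of the nearer wild type, and the lowest of the 4 sums was that of mutant lung 2. The sums were not tested. *Col3a1* alone made up 20.1% and 20.2% of the sum in wild types and 21.1% and 20.9% in mutants. By class, the fibril-forming collagens made up 56.3% and 56.8% of the sum in wild types against 58.9% and 57.7% in mutants. The collagen VI genes made up 31.0% and 30.9% against 28.0% and 28.9%. In these shares the genotypes did not overlap: fibril-forming collagens took the larger share in both mutants and collagen VI the smaller one. The TMM-scaled sums of the fibril-forming collagens overlapped (4286 and 4442 against 4465 and 4215 CPM), and those of collagen VI were lower in both mutants (2359 and 2418 against 2122 and 2113 CPM).

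None of the 34 members with a mean of at least 5 counts differed between genotypes at an adjusted p under 0.05 in edgeR's quasi-likelihood test, with p-values adjusted over all 18763 genes tested. Over the whole table the same test called 308 genes (1.64%), 252 lower (1.34%) and 56 higher (0.298%) in mutants. Scaled by library totals in place of TMM, it called 234 lower and 112 higher. Without mutant lung 2 the test called 1643 genes, 875 lower and 768 higher, 4 of them members (*Col12a1*, *Col25a1*, *Col27a1* and *Col6a6*, all higher). At an unadjusted p under 0.05, 3 members were lower (8.82% of those tested, against 9.02% of all genes) and 5 were higher (14.7%, against 7.52% of all genes). DESeq2's Wald test, which gave 24 members an adjusted p, called *Col6a1* and *Col6a2* lower and no member higher. Of all genes given an adjusted p by DESeq2 it called 2.25% lower and 0.74% higher. The CPM of both mutant lungs lay below both wild types for 5 members (14.7%) and above both for 12 (35.3%), against 24.3% and 23.9% of all genes tested. Of the members tested, 14 had a log2 fold change (mutant over wild type) below 0 and 20 above 0. Their median was 0.0088, and that of all genes tested was 0.0018. Without wild-type lung 1, wild-type lung 2, mutant lung 1 or mutant lung 2 the median of the members was 0.0324, 0.0326, 0.0226 or 0.0724. The 95% intervals of 20 members, and of all 8 major chains of types I, III, V and VI, lay within a 1.3-fold change in either direction. In whole lobes, a change in the number of cells that make a collagen and a change in the RNA per cell cannot be told apart.

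**Figure D1:**
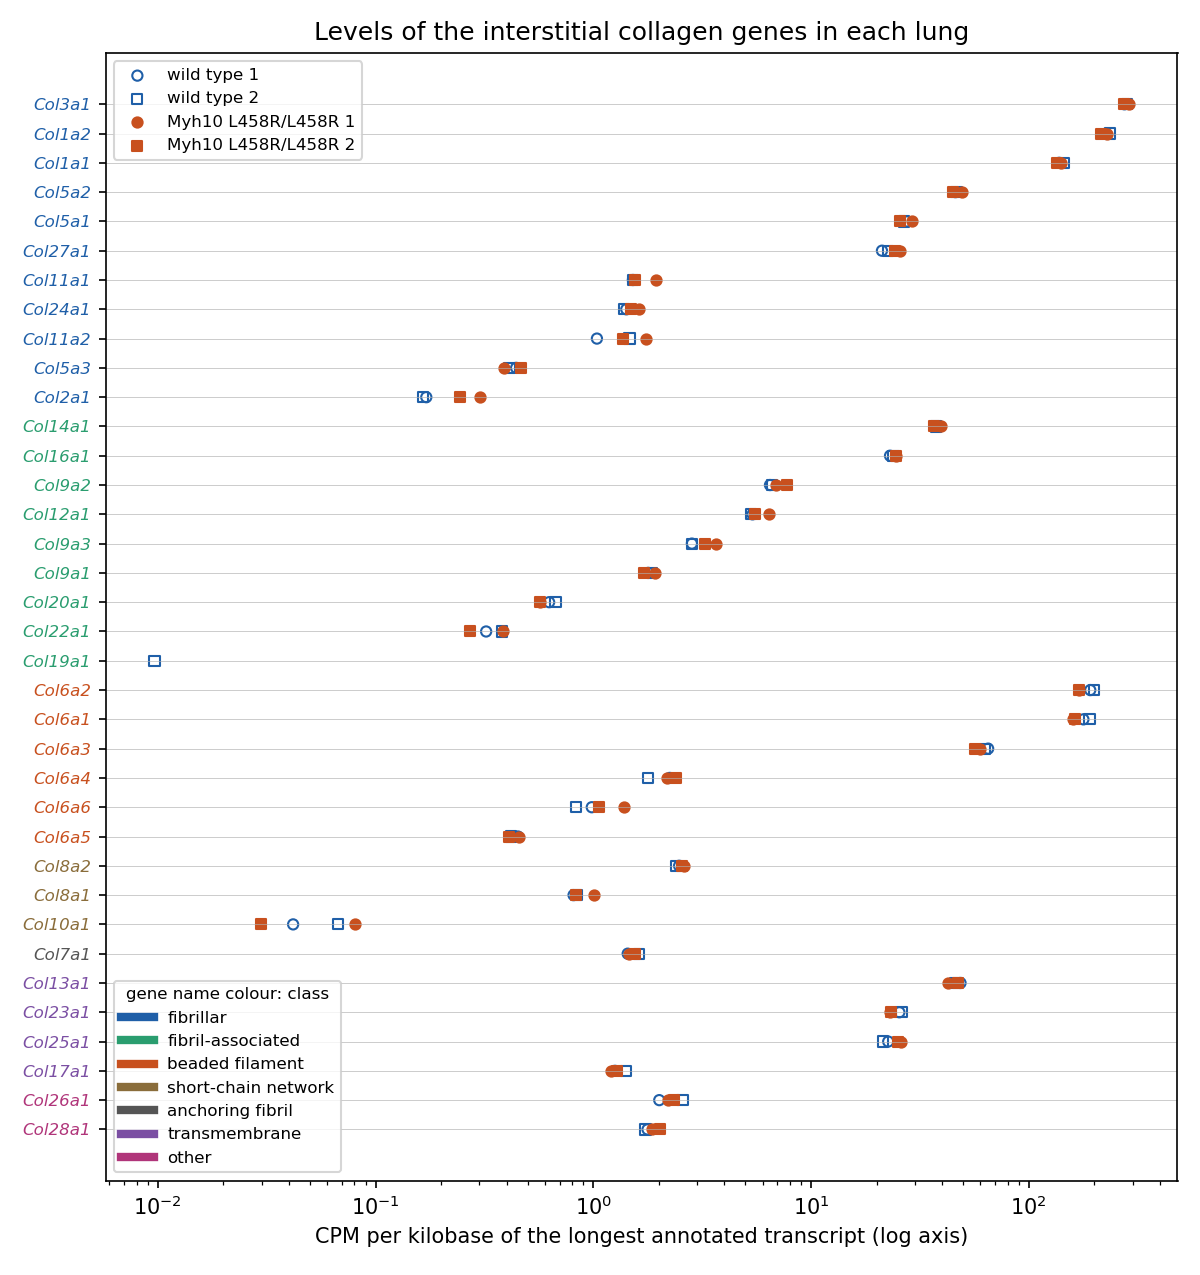
Level of each interstitial collagen gene in each of the 4 lungs, as CPM per kilobase of its longest annotated transcript on a log axis; open symbols are *Myh10*+/+ and filled symbols *Myh10*-/- lungs, and the 3 libraries at 0 for *Col19a1* are not drawn. Levels ran from 280.4 CPM per kilobase for *Col3a1* down to 0.221 for *Col2a1*, the lowest gene tested, and lungs differed far less than genes did.

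The 5 genes with the most counts per length were chains of types I, III and VI, with either the longest transcript or all annotated exons as the length. Per kilobase of transcript, *Col3a1* had a mean level of 280.4 CPM over the 4 lungs, *Col1a2* 226, *Col6a2* 183, *Col6a1* 173 and *Col1a1* 139.8. Their order depends on the length: over all exons *Col6a1* came first, then *Col3a1*, *Col1a1*, *Col6a2* and *Col1a2*. *Col6a3* followed at 61.2 CPM per kilobase of transcript, and the type V chains *Col5a2* and *Col5a1* were at 46.7 and 27.2. Across the 34 members tested, the rank correlation between the log2 fold change and the mean CPM was −0.235, against −0.104 over all genes tested. This is a description across genes that share the same 4 libraries.

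Type I collagen, the main fibril former of the lung, is built from the chains of *Col1a1* and *Col1a2*. *Col1a1* (ENSMUSG00000001506) was at 817 and 861 CPM in wild types and at 837 and 800.2 CPM in mutants. *Col1a2* (ENSMUSG00000029661) was at 1209 and 1262 CPM in wild types and at 1217 and 1153 CPM in mutants. For both chains mutant lung 1 lay between the wild types and mutant lung 2 was the lowest of the 4. The log2 fold change was −0.04 ± 0.08 (SE; adjusted p = 0.869; 95% interval −0.20 to 0.13) for *Col1a1* and −0.06 ± 0.09 (adjusted p = 0.791; −0.26 to 0.14) for *Col1a2*. With 1 lung left out, that of *Col1a2* ran from −0.098 to −0.020. Per kilobase of transcript, *Col1a1* had 0.609 and 0.615 times the reads of *Col1a2* in wild types and 0.621 and 0.626 times in mutants, a spread of a few percent across the lungs in which both mutants lay above both wild types. With the length taken as all annotated exons of the gene the ratio was 1.28 to 1.31, so that which of the chains had more RNA depends on the length used.

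Type III collagen, which forms thinner fibrils together with type I and abounds in stretchable tissues, is a product of *Col3a1* (ENSMUSG00000026043) alone. Its gene was at 1530.2 and 1578 CPM in wild types and 1602 and 1529.8 CPM in mutants. These groups overlapped, and the log2 fold change was 0.01 ± 0.10 (adjusted p = 0.973; 95% interval −0.20 to 0.22). Without wild-type lung 1 or without mutant lung 1 the sign turned (−0.01 and −0.02). The ratio of *Col3a1* to *Col1a1* per kilobase was 1.996 and 1.953 in wild types and 2.04 in each mutant lung, and 1.23 to 1.28 over the 4 lungs with all annotated exons as the length. *Col3a1* shares 141 bp of exon with a gene on the same strand, *Gm47302*, and reads that overlapped several genes were left out of the counts.

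Type V collagen starts fibrils and limits their width. *Col5a1* was at 232 and 225 CPM in wild types and at 244 and 216 CPM in mutants, its lowest and highest values both in mutants. *Col5a2*, which neighbours *Col3a1* on chromosome 1, was at 305 and 308 CPM against 328 and 296 CPM, again with the mutants on either side of the wild types. Log2 fold changes were 0.0069 ± 0.06 (adjusted p = 0.971) and 0.03 ± 0.06 (adjusted p = 0.869), and without mutant lung 1 both turned below 0 (−0.08 and −0.05), as *Col5a1* also did without wild-type lung 2 (−0.01). Per kilobase, *Col5a1* had 0.598 and 0.576 times the reads of *Col5a2* in wild types and 0.585 and 0.574 times in mutants. The third chain, *Col5a3*, was scarce, at 2.37 to 2.86 CPM in the 4 lungs. Exons of *Col5a1* are overlapped over 212 bp by genes on the opposite strand. The sources used here do not say whether counting used strand, so its counts, like those of the other genes named below as overlapped, are uncertain to that extent.

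**Figure D2:**
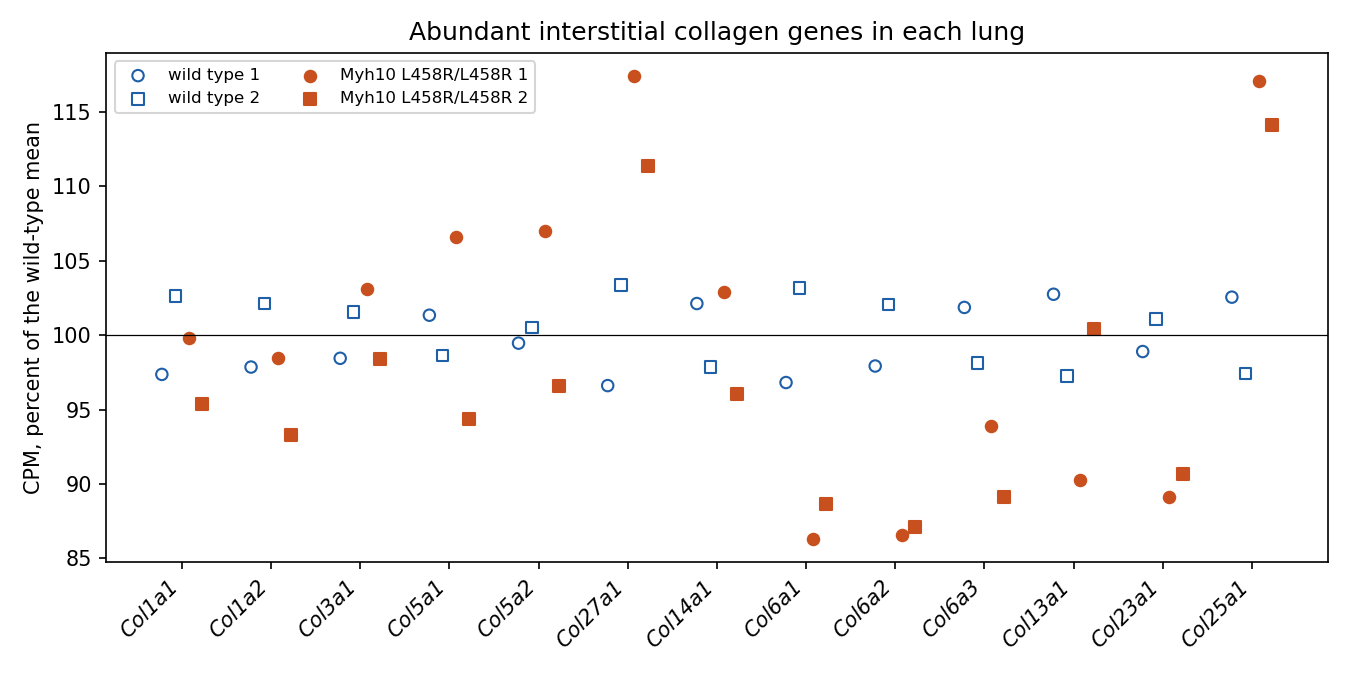
CPM of 13 abundant interstitial collagen genes in each lung, as a percent of the mean of the *Myh10*+/+ lungs; open symbols are *Myh10*+/+ and filled symbols *Myh10*-/- lungs. Both *Myh10*-/- lungs lay below both *Myh10*+/+ lungs for *Col6a1*, *Col6a2*, *Col6a3* and *Col23a1* and above both for *Col27a1* and *Col25a1*. Of all genes tested, 24.3% lay below and 23.9% above in this way. None of the collagen genes named here passed an adjusted p of 0.05 in the test with edgeR.

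Among the other fibril-forming genes, *Col27a1* (ENSMUSG00000045672), whose product forms thin fibrils best known from cartilage, was the most abundant. It was at 161 and 172 CPM in wild types and 196 and 186 CPM in mutants. Both mutants were higher than both wild types, with a log2 fold change of 0.19 ± 0.05 (adjusted p = 0.0886; 95% interval 0.08 to 0.31). Its adjusted p was 0.0438 with an offset for GC content and length and 0.00959 without mutant lung 2, and ran from 0.00804 to 0.455 over 16 alternatives, under 0.05 in 6 of them. *Col11a1*, *Col11a2* and *Col24a1* were at 6.29 to 14.9 CPM. *Col2a1*, the main collagen of cartilage, had 20 and 16 counts in wild types and 43 and 40 in mutants, or 0.873 and 0.840 against 1.55 and 1.24 CPM. Its log2 fold change of 0.69 ± 0.31 was the highest of the members tested and had the widest interval (0.02 to 1.36; adjusted p = 0.288). Over the 11 fibril-forming genes, 9 had a log2 fold change above 0 and 2 below 0, both of type I. Of all genes tested, 49.5% were below 0. At an unadjusted p under 0.05 2 were higher and none was lower, against 7.52% and 9.02% of all genes tested, and neither edgeR nor DESeq2 called one.

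The chains of collagens II, IX and XI, which make up the cartilage fibril, and of collagen X were summed as chains best known from cartilage. Whether the lobes held any cartilage was not tested. Their 7 genes reached 53.4 and 56.8 CPM in wild types and 65.8 and 60.6 CPM in mutants, led by *Col9a2*. Both mutant sums were above both wild-type sums. Of the 6 genes tested, 5 had a log2 fold change above 0, while 49.5% of all genes tested were below 0. Of 15 other cartilage markers 11 were tested and none was called by edgeR or DESeq2. At an unadjusted p under 0.05, 2 were lower and none higher, against 9.02% and 7.52% of all genes tested. Their summed level was 298 and 289 CPM in wild types and 288 and 292 CPM in mutants, with *Matn4* the most abundant at 135, 127, 112 and 126 CPM. Which cells made these RNAs was not tested, so the sum is not a level of cartilage. *Hapln1* was at 67.3 to 76.9 CPM, *Sox9* at 29.6 to 34.7 CPM, *Sox5* and *Sox6* at 18.6 to 21.4 CPM, *Cytl1* at 9.43 to 13.2 CPM and *Chad* at 4.19 to 6.09 CPM. Others of the list were near 0: *Acan*, the core protein of cartilage proteoglycan, was at 0.249 to 0.568 CPM, *Comp* at 0.216 to 0.315 CPM, *Matn1* and *Epyc* below 0.216 CPM or at it, *Ucma* at 1 count in all, and *3110079O15Rik* (*Snorc*) at 0 in every lung.

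**Figure D3:**
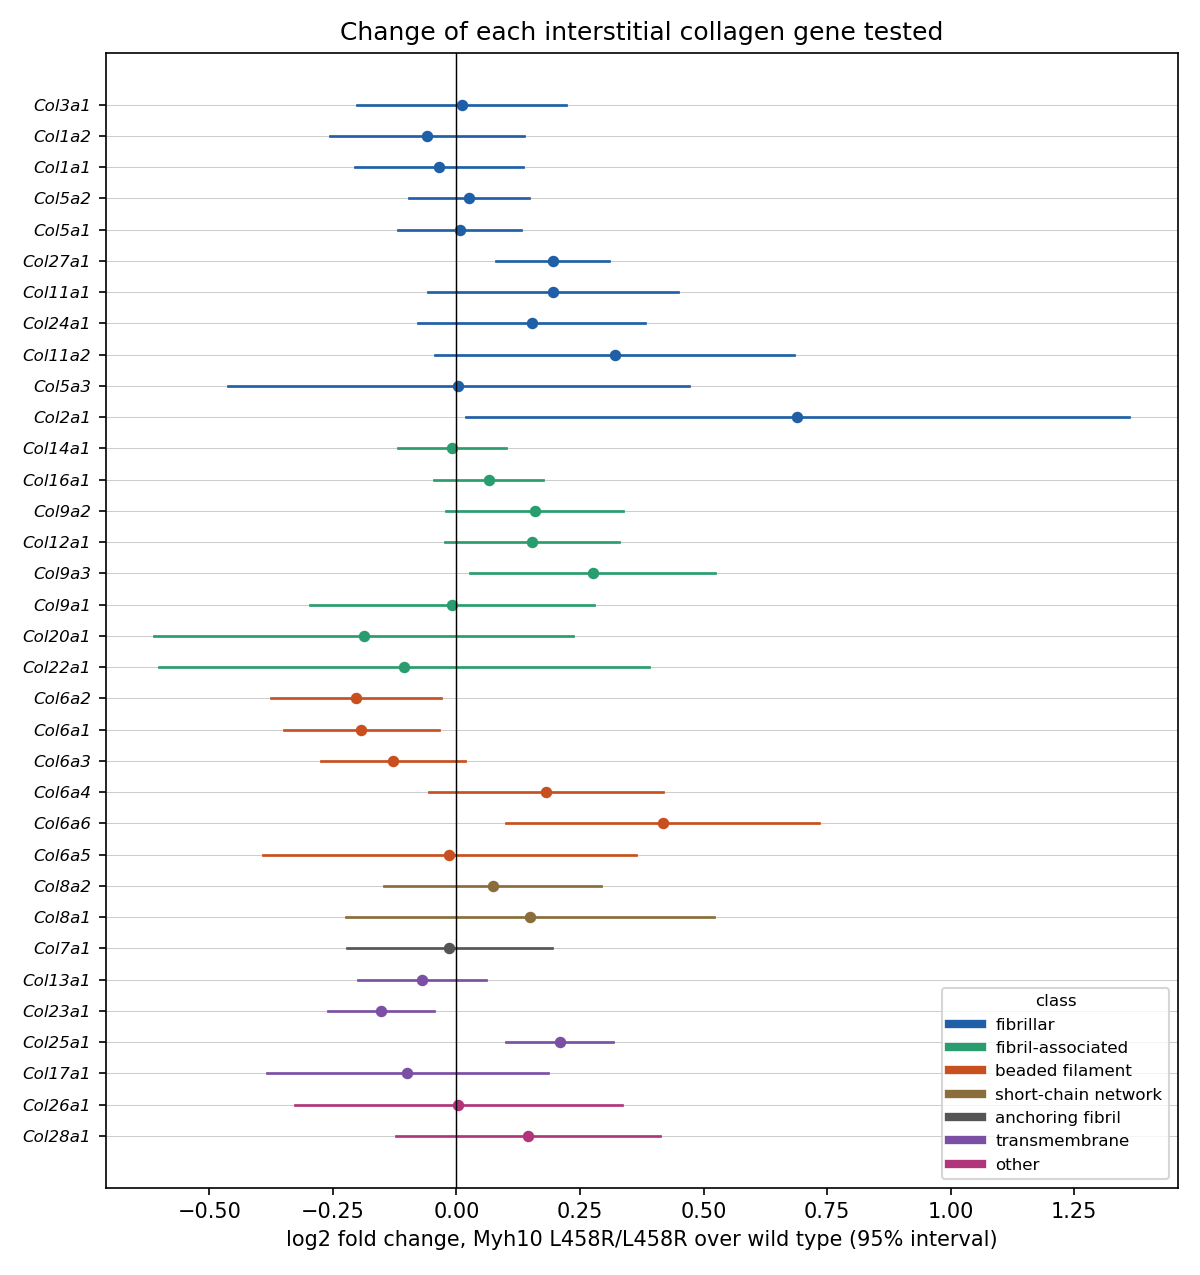
Log2 fold change (*Myh10*-/- over *Myh10*+/+, 2 lungs each) of the 34 interstitial collagen genes tested with edgeR; points are estimates and lines their 95% intervals, coloured by class and ordered by level within a class. Intervals of the abundant type I, III and V chains lie around 0, and the widest belongs to *Col2a1*, from 0.02 to 1.36.

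Of the fibril-associated collagens, *Col14a1*, which binds fibril surfaces and regulates early fibril growth, was the most abundant. It was at 253 and 242 CPM in wild types and 254 and 237 CPM in mutants, so that the groups overlapped (log2 fold change −0.0082 ± 0.05; adjusted p = 0.959). That value is so near 0 that scaling by library totals gave 0.01. *Col16a1* followed at 120.05 to 128 CPM and *Col12a1* at 61.2 to 73.7 CPM. *Col9a3*, a chain of the collagen that decorates cartilage fibrils, was at 8.64 and 8.67 CPM in wild types and 11.1 and 9.88 CPM in mutants (log2 fold change 0.28 ± 0.11; adjusted p = 0.248). Both mutants were higher, but 234 bp of its exons are overlapped by *Tcfl5* on the opposite strand. Of the 8 fibril-associated genes tested, 4 were above 0 and 4 below. None was called by edgeR or DESeq2, and *Col9a3* was the one at an unadjusted p under 0.05. *Col19a1* had 1 count in wild-type lung 2 and 0 in the other 3 lungs and was not tested.

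Of collagen VI, which joins fibrils to the cell surface through beaded filaments, *Col6a2* and *Col6a1* had the lowest log2 fold changes of all members. *Col6a1* (ENSMUSG00000001119) was at 731 and 779 CPM in wild types and 651 and 669 CPM in mutants. *Col6a2* (ENSMUSG00000020241) was at 941 and 981 CPM against 832 and 837 CPM. *Col6a3*, the long chain of the filament, was at 658 and 634 CPM against 606 and 575 CPM. For each of these 3 chains both mutants were below both wild types. Log2 fold changes were −0.19 ± 0.07 for *Col6a1* (adjusted p = 0.204; 95% interval −0.35 to −0.04), −0.20 ± 0.08 for *Col6a2* (adjusted p = 0.219; −0.38 to −0.03) and −0.13 ± 0.07 for *Col6a3* (adjusted p = 0.364; −0.27 to 0.02). With DESeq2 the adjusted p was 0.0460 for *Col6a1* and 0.0164 for *Col6a2*. Over 16 alternatives it ran from 0.0341 to 0.811 and from 0.0164 to 0.814, and was under 0.05 in 2 and 3 of them. The summed level of the 3 chains was 2329.5 and 2393 CPM in wild types and 2089 and 2082 CPM in mutants.

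The abundant chains *Col6a1*, *Col6a2* and *Col6a3* stood in similar proportions to each other in all 4 lungs. Per kilobase, *Col6a1* had 0.930 and 0.951 times the reads of *Col6a2* in wild types and 0.938 and 0.958 times in mutants. *Col6a3* had 0.340 and 0.314 times the reads of *Col6a2* in wild types and 0.354 and 0.334 times in mutants. In both ratios the genotypes overlapped. With all annotated exons as the length, the first ratio was 1.48 to 1.52 and the second 0.449 to 0.507, so that the order of *Col6a1* and *Col6a2* turns with the length used. *Col6a1* and *Col6a2* lie near each other on the minus strand of chromosome 10 (GRCm38), at 76708792 to 76726168 and 76595762 to 76623630, and *Col6a3* lies on chromosome 1. No exon of these 3 genes is overlapped by another gene, and none of the 75-base windows along their transcripts occurred in a transcript of another gene.

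The other collagen VI chains, *Col6a4*, *Col6a5* and *Col6a6*, lie together on chromosome 9 and were far scarcer, at 3.79 to 17.7 CPM. *Col6a6* was at 8.64 and 7.30 CPM in wild types and 12.2 and 9.32 CPM in mutants, both mutants being higher (log2 fold change 0.42 ± 0.15; adjusted p = 0.174, under 0.05 in 4 of 16 alternatives). Its log2 fold change was 0.22 without mutant lung 1 and 0.60 without mutant lung 2. *Col6a6* and *Col6a5* share 272 windows of 75 bases, out of 8707 and 9215, and 63 bp of *Col6a6* exons are overlapped on the opposite strand, so its counts are uncertain. *Col6a4* and *Col6a5* overlapped between genotypes, and the counts of *Col6a4* are uncertain too, with 289 bp of its exons overlapped on the opposite strand.

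The transmembrane collagens stay in the membrane of the cell that makes them. *Col25a1* (ENSMUSG00000058897) had the lowest adjusted p of all members. It was at 152 and 144 CPM in wild types and 173 and 169 CPM in mutants, both mutants being higher, with a log2 fold change of 0.21 ± 0.05 (adjusted p = 0.0608; 95% interval 0.10 to 0.32). Its adjusted p was under 0.05 in 5 of 16 alternatives, among them scaling by library totals (0.0372), robust dispersion (0.0498), no filter on low counts (0.00607, the lowest) and the fit without mutant lung 2 (0.0127), and it was 0.429 at most. *Col23a1* was at 144 and 147 CPM in wild types and 129.8 and 132 CPM in mutants, both mutants being lower (log2 fold change −0.15 ± 0.05; adjusted p = 0.145). *Col13a1*, a marker of a class of alveolar fibroblasts, was at 154 and 145 CPM against 135 and 150.2 CPM and overlapped between genotypes (log2 fold change −0.07 ± 0.06; adjusted p = 0.608). Without mutant lung 1 its log2 fold change was 0.0079. *Col17a1*, a hemidesmosome component of epithelial cells, was at 6.76 to 7.93 CPM. The level of *Col13a1* per kilobase, 46.2 CPM, was close to that of *Col5a2*, and *Col23a1* and *Col25a1* were at 24.4 and 23.8 CPM per kilobase.

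The remaining members were scarce. *Col7a1*, which forms the anchoring fibrils beneath epithelia, was at 13.3 to 14.97 CPM with the mutants in between. *Col8a2* and *Col8a1*, chains of a short network-forming collagen, were at 10.5 to 11.3 CPM and 4.15 to 5.14 CPM. *Col10a1*, made by hypertrophic chondrocytes, had 3 and 4 counts in wild types and 7 and 3 in mutants, was not tested, and gives no fold change at this depth. Its exons are overlapped over 18 bp by *Nt5dc1* on the opposite strand. *Col26a1* and *Col28a1* were at 5.59 to 8.58 CPM. None of these passed an unadjusted p of 0.05 with edgeR, and DESeq2 called none.

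The collagens left out by the rule are given for comparison, with no test of a difference between the lists. *Col4a1* was at 1378 and 1176 CPM in wild types and 1162 and 1068 CPM in mutants, and *Col4a2* at 685 and 682 against 587 and 557 CPM. Both mutants were lower for either chain of this basement membrane collagen, the log2 fold change being −0.20 ± 0.10 for *Col4a1* (adjusted p = 0.363) and −0.26 ± 0.07 for *Col4a2* (adjusted p = 0.0799, under 0.05 in 5 of 16 alternatives). That of *Col4a1* was −0.08 without wild-type lung 1 and −0.31 without wild-type lung 2. Of the 8 genes left out, 7 had a log2 fold change below 0, against 14 of 34 interstitial genes and 49.5% of all genes tested, and the median was −0.09. For 5 of the 8 both mutants lay below both wild types, against 24.3% of all genes tested. None was called by edgeR, 2 were lower at an unadjusted p under 0.05, against 9.02% of all genes tested, and DESeq2 called 1 lower, against 2.25% of all genes it gave an adjusted p.

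Genes that act on collagen chains were read from the same fit, in 5 lists with 85 genes, of which 78 were tested. One was called, *Adamtsl2*, and it was lower. In all, 10 were lower and 10 higher at an unadjusted p under 0.05, and DESeq2 called 3 lower. Over all genes tested, edgeR called 1.64%, 9.02% were lower and 7.52% higher at an unadjusted p under 0.05, and DESeq2 called lower 2.25% of those it gave an adjusted p. Of the 20 genes that hydroxylate, fold and chaperone chains in the endoplasmic reticulum, none was called by edgeR or DESeq2 or reached an unadjusted p of 0.05. *Serpinh1*, the collagen chaperone, was the most abundant at 948 and 899 CPM in wild types and 910.2 and 947 CPM in mutants, which overlapped. The lowest unadjusted p-values belonged to *P4ha1*, a prolyl hydroxylase subunit (91.0, 96.3, 88.4 and 82.5 CPM; log2 fold change −0.13 ± 0.06), and *Plod1*, a lysyl hydroxylase (−0.12 ± 0.08). With 1 lung left out, the log2 fold change of *P4ha1* ran from −0.180 to −0.081. In this list 16 of 20 genes had a log2 fold change below 0, against 49.5% of all genes tested, and for 10 both mutants lay below both wild types, against 24.3% of all genes tested. Of the 17 genes of secretion and propeptide removal, 14 were tested and none was called by edgeR or DESeq2, with 2 lower and 2 higher at an unadjusted p under 0.05. The N-propeptide proteases differed in sign. In both mutants *Adamts3* was higher and *Adamts2* and *Adamts14* lower: *Adamts3* was at 9.25 and 7.72 CPM in wild types against 11.1 and 10.2 CPM, *Adamts2* at 122 and 115 against 105 and 110.0 CPM, and *Adamts14* at 23.5 and 23.6 against 21.4 and 19.9 CPM (adjusted p = 0.216, 0.223 and 0.224). *Tll2*, *Mep1a* and *Mep1b* had too few counts to test.

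The list of cross-linking and fibril assembly held 23 genes, 22 of them tested, and *Kera* had no count. At an unadjusted p under 0.05, 3 were lower and 4 higher, against 9.02% and 7.52% of all genes tested. Both mutants lay below both wild types for 6 and above both for 7, against 24.3% and 23.9% of all genes tested. *Adamtsl2*, a secreted glycoprotein that binds microfibrils and fibronectin, was at 129 and 138 CPM in wild types and 107 and 107 CPM in mutants. Both mutants were lower (log2 fold change −0.32 ± 0.05; adjusted p = 0.0178), and the adjusted p was under 0.05 in 15 of 16 alternatives, the exception being 0.0910 without wild-type lung 2. *Dpt*, which binds decorin and speeds fibril formation, was at 87.8 and 88.8 CPM against 59.6 and 76.0 CPM (log2 fold change −0.38 ± 0.09; adjusted p = 0.0693; 0.0138 with DESeq2, under 0.05 in 10 of 16 alternatives and 0.0923 at most). Without mutant lung 1 the log2 fold change of *Dpt* was −0.21, and without mutant lung 2 it was −0.57. Lysyl oxidase, which starts the cross-links, overlapped between genotypes: *Lox* was at 922 and 988 CPM against 919 and 953 CPM. The fibril-binding proteoglycans *Dcn*, *Lum*, *Fmod* and *Ogn* were each higher in both mutants, with log2 fold changes of 0.15, 0.26, 0.14 and 0.15 and adjusted p-values of 0.312, 0.204, 0.223 and 0.167, so that none was called. Of their relatives in the list, *Podn* was higher in both mutants, *Bgn*, the most abundant, was lower in both (613 and 618 against 610.5 and 606 CPM; adjusted p = 0.929), and *Aspn*, *Omd* and *Prelp* overlapped. *Tnxb* had the lowest log2 fold change of the list (−0.40 ± 0.12; adjusted p = 0.122). *Sparc*, the most abundant gene of the list, was at 1666 and 1668 CPM in wild types and 1440.4 and 1596 CPM in mutants.

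Among 14 collagen receptors and uptake proteins, all tested, none was called by edgeR. At an unadjusted p under 0.05, 2 were lower and 3 higher, against 9.02% and 7.52% of all genes tested. DESeq2 called 1 lower, against 2.25% of all genes it gave an adjusted p. The discoidin domain receptors, tyrosine kinases that bind fibrillar collagen, had the lowest p-values. *Ddr1*, found mainly on epithelial cells, was at 106 and 109.6 CPM in wild types and 92.9 and 86.2 CPM in mutants (log2 fold change −0.26 ± 0.06; adjusted p = 0.0503; 0.0320 with DESeq2, under 0.05 in 9 of 16 alternatives and 0.215 at most). *Ddr2*, found mainly on mesenchymal cells, was at 141 and 144 CPM against 167 and 159 CPM (log2 fold change 0.19 ± 0.05; adjusted p = 0.0849, under 0.05 in 3 of 16 alternatives). *Ddr1* was thus lower and *Ddr2* higher in both mutants than in both wild types. Of the 11 collagenases and gelatinases, 8 were tested and none was called by edgeR or DESeq2. At an unadjusted p under 0.05, 3 were lower and 1 higher, against 9.02% and 7.52% of all genes tested. *Mmp14*, the main membrane-bound collagenase, was at 291 and 298 CPM in wild types and 255 and 261 CPM in mutants (log2 fold change −0.19 ± 0.05; adjusted p = 0.0662, under 0.05 in 4 of 16 alternatives). *Mmp16*, a relative of it, was at 5.68 and 4.15 CPM against 7.91 and 7.40 CPM (log2 fold change 0.62 ± 0.16; adjusted p = 0.0769, under 0.05 in 7 of 15 alternatives). *Mmp1a* and *Mmp1b* had no count, and *Mmp13* too few to test.

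Markers of the cells that make or adjoin these collagens were given their levels in the same lungs. For the counts of calls below, edgeR called 1.34% of all genes tested lower and 0.298% higher. The 16 fibroblast markers summed to 7786 and 7431 CPM in wild types and 7287 and 7711 CPM in mutants, with *Mfap4* the most abundant at 2357, 2249, 2093 and 2389.6 CPM. These sums overlapped between genotypes. None of the 16 was called by edgeR. At an unadjusted p under 0.05, 4 were lower and 2 higher, against 9.02% and 7.52% of all genes tested. DESeq2 called 2 lower, against 2.25% of all genes it gave an adjusted p. *Dpt* is also in the list of fibril assembly. The 10 smooth muscle and myofibroblast markers summed to 1668 and 1642 against 1662 and 1637 CPM, led by *Mylk*, and none was called by edgeR or DESeq2 or had an unadjusted p under 0.05. Of the 11 epithelial markers 6 were called, all lower (*Cdh1*, *Krt8*, *Sftpb*, *Hopx*, *Ager* and *Scgb1a1*). For 9 of the 11 both mutants lay below both wild types, against 24.3% of all genes tested. *Epcam* and *Nkx2-1* overlapped between genotypes, with log2 fold changes of −0.04 and 0.02 (edgeR adjusted p = 0.738 and 0.881). The sum of the 11 was 9040.2 and 8844 CPM in wild types and 6300.5 and 7362 CPM in mutants. *Sftpc* led it at 5815, 5630.3, 3876 and 4750.3 CPM, or 61.5% to 64.5% of the sum. Of the 12 markers of skeletal and cardiac muscle 5 were called, all lower (*Myh6*, *Myl7*, *Myl4*, *Tnnt2* and *Ryr2*), with sums of 310.5 and 373 against 255 and 231 CPM, led by *Actc1*, and *Myog* had 1 count in all. DESeq2 called 4 of the epithelial and 6 of the muscle markers lower, against 2.25% of all genes it gave an adjusted p. It did not call *Hopx* (adjusted p = 0.249) or *Scgb1a1* (0.0582), which robust dispersion did not call either (0.0950 and 0.343). Leaving out 1 lung ended the calls of *Cdh1* (adjusted p = 0.107 without wild-type lung 1) and of *Sftpb*, *Myl4* and *Tnnt2* (0.0633, 0.246 and 0.189 without wild-type lung 2). The part of these cells in the levels of *Col6a1*, *Col6a2* and *Col23a1* was not tested.

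Endothelial, mesothelial, blood and other cells were read in the same way, with edgeR calling 1.34% of all genes tested lower and 0.298% higher. The 6 endothelial markers summed to 1330.1 and 1271 CPM in wild types and 1229 and 1186 CPM in mutants, led by *Cdh5*. None was called by edgeR or DESeq2, and 3 were lower at an unadjusted p under 0.05, against 9.02% of all genes tested. Of the 4 mesothelial markers *Msln* was called lower (207, 224, 129 and 169 CPM). The list did not move as a whole, with 2 log2 fold changes below 0 and 2 above. *Wt1* was higher in both mutants (log2 fold change 0.15), and *Upk3b* and *Lrrn4* overlapped between genotypes (−0.11 and 0.02). Of the 5 erythroid markers *Hba-a2* and *Alas2* were called lower, and the list summed to 4251 and 5338 against 3752 and 4267 CPM, led by *Hbb-bs*. DESeq2 called no marker of these 2 lists, robust dispersion did not call *Msln* (adjusted p = 0.127), and without wild-type lung 2 the adjusted p was 0.215 for *Hba-a2* and 0.0679 for *Alas2*. That of *Hba-a2* was under 0.05 in 10 of 16 alternatives, the others including robust dispersion (0.0726) and the fit without mutant lung 1 (0.0627). The 5 bone markers summed to 69.8 and 73.2 against 69.6 and 77.9 CPM, led by *Phex*, with *Bglap* at 0.0525 to 0.216 CPM. The 4 basal cell markers were nearly all *Krt15*, with *Krt5* at 0.0437 to 0.210 CPM. The 4 leukocyte markers summed to 58.8 to 71.3 CPM, led by *Csf1r*. In these bone, basal and leukocyte lists neither edgeR nor DESeq2 called a gene. At an unadjusted p under 0.05, 3 genes were lower (*Krt15*, *Ptprc* and *Csf1r*) and none higher, against 9.02% and 7.52% of all genes tested.

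Promoter sequences from RefSeq (GRCm38.p6) were matched by symbol for 28 of the 36 members, some with more than 1 start. *Col1a1*, *Col2a1*, *Col5a2*, *Col9a3*, *Col12a1*, *Col14a1*, *Col22a1* and *Col26a1* were not matched. The 120 bases before the start are shown for *Col6a2* and *Col6a3*, for which both mutants lay below both wild types, for *Col25a1* and *Col27a1*, which had the lowest adjusted p-values, and for *Col3a1*, the most abundant member. That of *Col6a2* is for the outer of its 2 starts. Those of *Col25a1* and *Col27a1* belong to starts inside the genes as annotated, which begin at 130131501 and 63214004. Those of *Col6a1* and *Col1a2* overlap annotated exons and are not shown. Capitals mark matches to the letters TATAAA, to the letters CCAAT and to the letters GGGCGG on either strand, wherever they lie in the window.
*Col6a2* (chr10:76623631-76623750, minus strand): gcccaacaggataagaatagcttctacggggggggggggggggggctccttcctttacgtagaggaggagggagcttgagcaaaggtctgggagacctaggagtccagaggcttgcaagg
*Col6a3* (chr1:90843972-90844091, minus strand): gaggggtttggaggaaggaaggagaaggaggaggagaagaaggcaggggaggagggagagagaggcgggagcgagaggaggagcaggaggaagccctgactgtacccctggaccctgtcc
*Col25a1* (chr3:130180725-130180844, plus strand): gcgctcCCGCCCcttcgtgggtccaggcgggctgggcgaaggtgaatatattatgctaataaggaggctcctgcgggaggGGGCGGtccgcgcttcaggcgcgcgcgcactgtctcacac
*Col27a1* (chr4:63215292-63215411, plus strand): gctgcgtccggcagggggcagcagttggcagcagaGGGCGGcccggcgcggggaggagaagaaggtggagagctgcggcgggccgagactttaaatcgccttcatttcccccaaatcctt
*Col3a1* (chr1:45311418-45311537, plus strand): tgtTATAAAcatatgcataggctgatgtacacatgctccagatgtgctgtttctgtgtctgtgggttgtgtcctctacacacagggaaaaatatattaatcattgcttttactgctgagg

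Of these letters, the stretch of *Col3a1* held TATAAA, at its far end from the start, those of *Col25a1* and *Col27a1* held GGGCGG or its complement, and those of *Col6a2* and *Col6a3* held none of the 3. The window of the other *Col6a2* start, which is not shown since it overlaps an annotated exon, held GGGCGG. Over the 30 promoters of the members, TATAAA occurred in 3, CCAAT in 5 and GGGCGG in 14, against 6.34%, 21.3% and 26.5% of all 32851 promoters in windows of the same length. The CArG box, the letters bound by serum response factor, was in none of the 30 and in 0.749% of all. A match of letters is a description of the sequence, and the absence of one says only that these letters are not in this window.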

How the data were processed

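RNA-seq counts of left lung lobes at E17 were analysed, 2 *Myh10*+/+ and 2 *Myh10*-/- mice. The authors deposited unnormalized counts for every Ensembl gene and lung. Per the study's methods and the submitters' processing notes, reads from stranded libraries were trimmed, aligned to GRCm38 (STAR 2.4.0a) and counted on exons (featureCounts 1.5.1), without reads of more than 1 gene or place. Whether strand was used is not given in the sources used here. Total counts per lung ran from 19116971 to 32055306, and the number of lungs limits the precision.

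Genes averaging 5 counts or more were tested with edgeR 4.0.16 in R 4.3.3 (TMM, glmQLFit with robust = FALSE, glmQLFTest), genotype as the only term, with Benjamini-Hochberg adjustment over all 18763 genes. Intervals are at 95%. The test was checked on simulated data. Levels per length used the longest transcript in GENCODE M21.

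The members and lists were chosen with earlier results of these data known. The genes named are the main chains of types I, III, V and VI with *Col2a1*, *Col13a1* and *Col14a1*, members past an adjusted p of 0.05, the 5 lowest unadjusted p-values in each direction, the 5 highest levels per length, members not tested, and in each list of genes that act on collagens those past an adjusted p of 0.05 and the 2 lowest unadjusted p-values. Others were named after their values were seen. The alternatives tried were scaling by library totals or by DESeq2's size factors, robust dispersion, other filters on low counts, leaving out chromosomes X, Y and MT, the replicate number as a block, an offset for GC content and length (loess, span 0.3), DESeq2 1.42.0, an adjusted p threshold of 0.1 and leaving out each lung; a block with crossed numbers was chosen after seeing the data. One of the marker lists set in the design is not reported here.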

Additional observations from a re-analysis of the deposited data

How the results depend on the processing

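Over all genes tested, 234 were called lower and 112 higher with library totals. These numbers were 352 and 92 with the GC and length offset, and 289 and 90 without chromosomes X, Y and MT. DESeq2 called 258 lower and 85 higher of the 11487 genes it gave an adjusted p. With no filter on low counts 28549 genes were tested, 36 of them members. How many of all genes passed an adjusted p of 0.1 is not given here. With the main settings the number of genes called was 308 of 18763. It was 474 with robust dispersion, 1162 with no filter on low counts, 710 under a replicate block, 783 under this block plus the GC and length offset, and 206 to 1643 when 1 lung was left out. Interstitial collagen genes called went from 0 to 1 with library totals (*Col25a1*), 1 with robust dispersion (*Col25a1*), 1 with the GC and length offset (*Col27a1*), 2 with DESeq2 (*Col6a1* and *Col6a2*), 2 at an adjusted p threshold of 0.1 (*Col25a1* and *Col27a1*), 2 with the block (*Col25a1* and *Col27a1*), 2 with the block and offset (*Col27a1* and *Col6a6*), 5 with no filter, and 0 to 4 when 1 lung was left out. Of the genes that act on collagens, 1 was called, against 4 with robust dispersion, 9 with no filter, 3 without chromosomes X, Y and MT, 2 with the offset, 3 with DESeq2, 6 with the block, 5 with the block and offset, and 0 to 7 when 1 lung was left out. The median log2 fold change of the interstitial collagens moved from 0.0088 to between 0.023 and 0.072 when 1 lung was left out. It was 0.029 with library totals and 0.023 with the GC and length offset. Medians of all genes tested under these settings were 0.022 and −0.0089. The cause of these changes was not tested.

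The labels number the lungs within each genotype and say nothing of pairs. Deviations of lungs with the same number correlated at −0.214 over all genes tested and at −0.02 without chromosomes X, Y and MT. For well-counted genes (250 counts or more on average) these values were −0.718 and 0.112. With the numbers crossed as a block, which pairs the lungs of the same sex and was chosen after seeing the data, 415 genes, 0 interstitial collagen genes and 4 genes that act on collagens were called, and 1024, 3 and 7 with the offset as well.

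Signs turned only for genes near 0. The log2 fold change of *Col14a1* was 0.012 with library totals, 0.0039 with the offset, 0.0040 with the offset and block and 0.0034 with the offset and crossed block. With 1 lung left out it ran from −0.056 to 0.043 for *Col14a1*, from −0.073 to 0.0025 for *Col1a1*, from −0.021 to 0.046 for *Col3a1*, from −0.081 to 0.094 for *Col5a1*, from −0.048 to 0.10 for *Col5a2* and from −0.15 to 0.0079 for *Col13a1*. These fits assume that the lone lung varies like those of the other genotype. Over 47 named genes and 751 values under an alternative, 659 kept the direction and, where an adjusted p was given, the side of the threshold. DESeq2 gave no adjusted p for *Col2a1*, *Mmp16* and *Col20a1*, so that only their direction was compared there. Members with few counts had the widest intervals, with a half-width of up to 0.67, against 0.11 at the narrowest.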
